A study of Homo sapiens with 12 samples.

Results

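MDA-MB-231 cells given SAHA and pargyline together were compared with cells given the vehicle DMSO. The comparison held 6 of the 12 arrays of the study: the 3 labelled as treated with 5 uM SAHA plus 2.5 mM pargyline for 24 h, called the combination here, and the 3 labelled as treated with DMSO for 24 h. They were chosen by these labels and not by their values. The other 6 arrays, 3 with 5 uM SAHA alone and 3 with 2.5 mM pargyline alone for 24 h, entered the fit and are used where the combination is set against a single drug. All 12 arrays were labelled as biological replicates of 1 established cell line, and each drug was used at 1 dose and 1 time. Affymetrix expression arrays gave a log2 intensity per probe set, and for each of 11963 genes the probe set that was brightest on average over all arrays was kept. A gene is said to have risen or fallen when its adjusted p was under 0.05 in limma (two-sided, Benjamini-Hochberg over all genes). Changes are log2 fold changes of the combination over DMSO with their standard error (SE), so that 1 is a doubling, and n is 3 arrays per group throughout.

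MDA-MB-231 is a human triple-negative breast cancer line with a mesenchymal, basal-like character. SAHA (vorinostat) blocks the zinc-dependent histone deacetylases, enzymes that remove acetyl groups from histone tails and other proteins and that act in repressor complexes. Pargyline is an irreversible inhibitor of the monoamine oxidases, and it is also used against the related flavin enzyme LSD1 (KDM1A), a histone demethylase that sits with deacetylases in the CoREST complex. Inhibitors of deacetylases are known to raise the cell cycle inhibitor p21 and to slow division in many tumour lines. No question beyond the comparison of the treatments is stated in the labels.

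The arrays of the 2 groups were set side by side before any gene. Arrays of 1 group had correlations of 0.9976 to 0.9992 (Pearson's r across probe sets), and combination arrays had 0.9688 to 0.975 with DMSO arrays. By these correlations no array stood apart. In single genes combination replicate 3 differed from the others of its group. It lay nearest DMSO for CDKN1A, NR4A1 and PLAU, among others, and farthest from DMSO for RCAN2 and BHLHE41. Values fell into 2 modes, a low one at 2.0 to 2.5 and a high one just above 10.5, and a level of 4.0 at the end of the trough between them is used below as the bound of a low level. The array median averaged 5.30 ± 0.04 (SD, n = 3) with the combination and 5.12 ± 0.02 with DMSO, and the 3′ to 5′ difference of the actin controls averaged 0.89 ± 0.05 and 0.79 ± 0.03 in the same order of groups. Both gave p = 0.1 in exact two-sided permutation tests, which is the lowest p possible with 3 arrays per group, and 0.2 after adjustment over the 4 quality measures. The part of these differences in the results was not tested. Of 9 genes known to be high in this line, all were above the low level in both groups, among them VIM (14.84 with the combination and 14.90 with DMSO), EGFR (11.65 and 11.54) and CD44 (12.20 and 13.68). Of 8 genes known to be low in it, 6 were at the low level in both groups, including ESR1, PGR and CDH1, while GATA3 and ERBB2 were above it. All 14 leukocyte markers and 14 of 15 fibroblast markers were below 4.0 on each of the 6 arrays.

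The combination changed nearly as many genes upward as downward. In all, 2903 genes rose (24.3% of those tested) and 2872 fell (24.0%), and the change reached 2-fold in 1286 of the rises and 1168 of the falls. The median gene moved by -0.015, with a median SE of 0.077. The 3 combination and 3 DMSO arrays did not overlap for 7891 genes (66.0%), among them 5734 of the 5775 that passed. Of the 180 genes that rose by at least 8-fold, 100 averaged below 4.0 with DMSO, and of the 122 that fell by as much, 45 averaged below 4.0 with the combination. A fold change from or to the low level depends on where the array's floor lies and cannot be read as an exact ratio of transcripts. The balance of rises and falls depended on scaling: after each array was centred on its own median, 2472 genes rose and 7648 fell, with a median change of -0.18, so that genes at the floor came out as lower; for several lists below the rises and falls with centred arrays are given in brackets. The RNA came from whole cultures, in which fewer cells of a kind and less RNA per cell cannot be told apart.

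**Figure D1:**
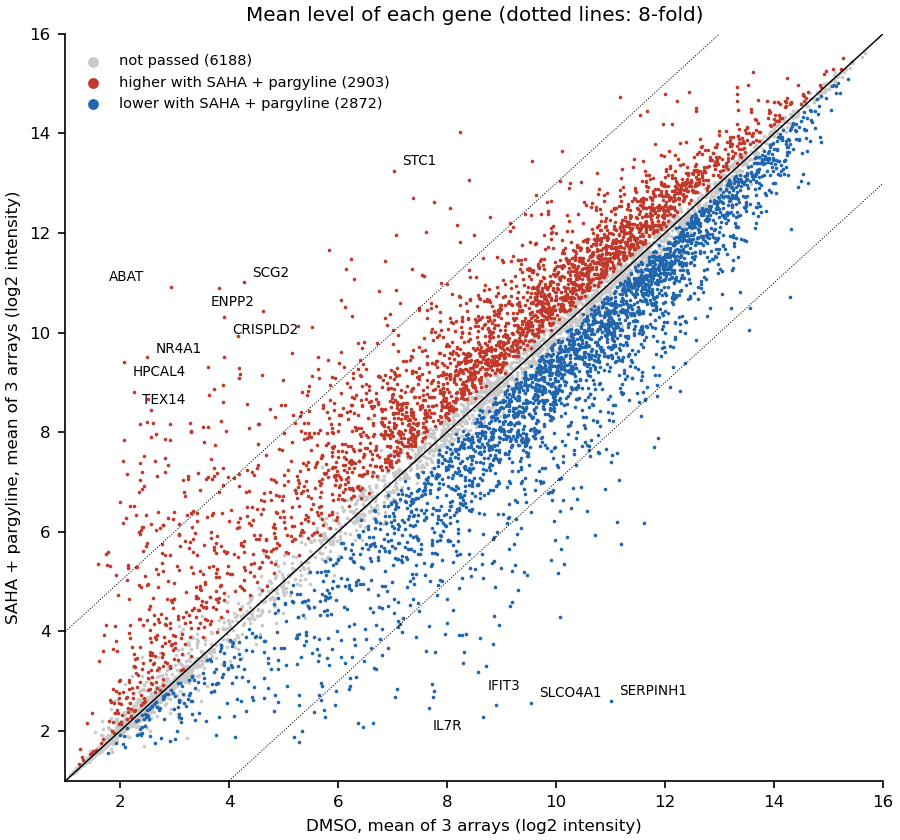
Mean log2 intensity of each of the 11963 genes on the 3 combination arrays (vertical axis) against the 3 DMSO arrays (horizontal axis). Red points rose (2903), blue points fell (2872) and grey points did not pass (6188); the dotted lines mark 8-fold, and the named genes are among the 14 largest rises and 14 largest falls.

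Most of the largest rises took genes from the low level with DMSO to the middle or top of the array's range. ABAT, which encodes the transaminase that breaks down the transmitter GABA, read 11.05, 11.09 and 10.61 on the combination arrays, against 2.93, 3.02 and 2.87 on the DMSO arrays. Every combination array lay far above every DMSO array, and the change was 7.97 ± 0.14 (adjusted p = 1.19e-09). A further probe set of ABAT gave 7.96, and another, at the low level in both groups, gave 0.28. HPCAL4, a calcium sensor of neurons, read 9.54, 9.39 and 9.32 on the combination arrays, against 2.07, 2.08 and 2.09 on the DMSO arrays (7.33 ± 0.10, adjusted p = 8.18e-11), with the DMSO arrays at the floor and almost equal. NR4A1, an orphan nuclear receptor of the immediate early response, read 10.22, 9.92 and 8.38 on the combination arrays, against 2.44, 2.06 and 3.00 on the DMSO arrays (7.01 ± 0.56), where combination replicate 3 was the lowest of its group but still well above DMSO. SCG2, a granin of secretory granules, read 11.12, 11.11 and 10.84 on the combination arrays, against 4.39, 4.26 and 4.16 on the DMSO arrays (6.75 ± 0.13).

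Other leading rises lay in signalling, transport and stress genes. ENPP2, the autotaxin gene whose enzyme makes lysophosphatidic acid, read 10.77, 10.98 and 10.96 on the combination arrays, against 4.41, 3.93 and 3.10 on the DMSO arrays (7.09 ± 0.27), and its DMSO arrays were spread over more than 1 unit. STC1, a secreted glycoprotein hormone induced by hypoxia, read 13.37, 13.18 and 13.18 on the combination arrays, against 6.58, 6.37 and 8.13 on the DMSO arrays (6.21 ± 0.42, adjusted p = 1.25e-06), with 1 DMSO array well above the other two but none near the combination. CHAC1, an enzyme that degrades glutathione and a target of the stress factor ATF4, read 10.35, 11.62 and 9.31 on the combination arrays, against 4.41, 5.16 and 4.31 on the DMSO arrays (5.80 ± 0.50). The combination arrays of CHAC1 differed among themselves more than those of the other leading rises, and the groups did not overlap. TEX14, a gene of germ cell bridges, read 8.91, 8.96 and 8.57 on the combination arrays, against 2.25, 2.28 and 2.23 on the DMSO arrays (6.56 ± 0.21), and FOS, a subunit of the AP-1 factor, read 8.44, 8.90 and 8.01 on the combination arrays, against 2.54, 2.51 and 2.63 on the DMSO arrays (5.89 ± 0.26). The remaining leading rises were CRISPLD2 (6.41 ± 0.36), RCAN2, a regulator of calcineurin (6.14 ± 0.23), the water and glycerol channel AQP3 (5.82 ± 0.19), the actin nucleator COBL (5.78 ± 0.21) and the dehydrogenase DHRS2 (5.78 ± 0.15). Of these 14 genes, 9 averaged below 4.0 with DMSO.

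Most of the largest falls took well-measured genes down to the low level: 11 of the 14 averaged below 4.0 with the combination, and 0 of the 14 with DMSO. SERPINH1, the chaperone of collagen folding in the endoplasmic reticulum, read 2.50, 2.04 and 3.24 on the combination arrays, against 11.04, 11.09 and 10.87 on the DMSO arrays (-8.41 ± 0.26, adjusted p = 1.17e-08). SLCO4A1, an organic anion transporter, read 2.35, 2.35 and 2.98 on the combination arrays, against 9.41, 9.28 and 9.94 on the DMSO arrays (-6.98 ± 0.22), and the receptor gene IL7R read 1.40, 1.97 and 3.45 on the combination arrays, against 8.90, 9.14 and 7.93 on the DMSO arrays (-6.39 ± 0.65). In each of the 3 genes all combination arrays were below 4.0 and all DMSO arrays above 7.5. The focal adhesion gene LPXN (-5.78 ± 0.28), the urokinase gene PLAU (-5.44 ± 0.65), the desmosome gene PKP3 (-5.40 ± 0.19), the cytokine receptor gene IL27RA (-5.38 ± 0.06) and CASD1, which acetylates sialic acids (-5.11 ± 0.33), followed. Among them were genes induced by interferon, IFIT3 (-6.37 ± 0.15), IFIT2 (-5.06 ± 0.28), NMI (-5.43 ± 0.34) and the immunoproteasome subunit PSMB10 (-4.96 ± 0.15). The mitotic kinase gene PLK1 (-5.20 ± 0.26) and the stress factor gene ATF5 (-4.92 ± 0.22) made up the 14. PLAU, whose urokinase activates plasminogen at the cell surface, read 5.17, 5.95 and 7.42 on the combination arrays, against 11.65, 11.66 and 11.54 on the DMSO arrays, and its combination arrays were the most spread of the 14 though still below all DMSO arrays. Of the 28 leading genes, 11 had 17 further probe sets, of which 12 passed in the same direction, 0 passed in the opposite one and 5 did not pass, all 5 at the low level.

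**Figure D2:**
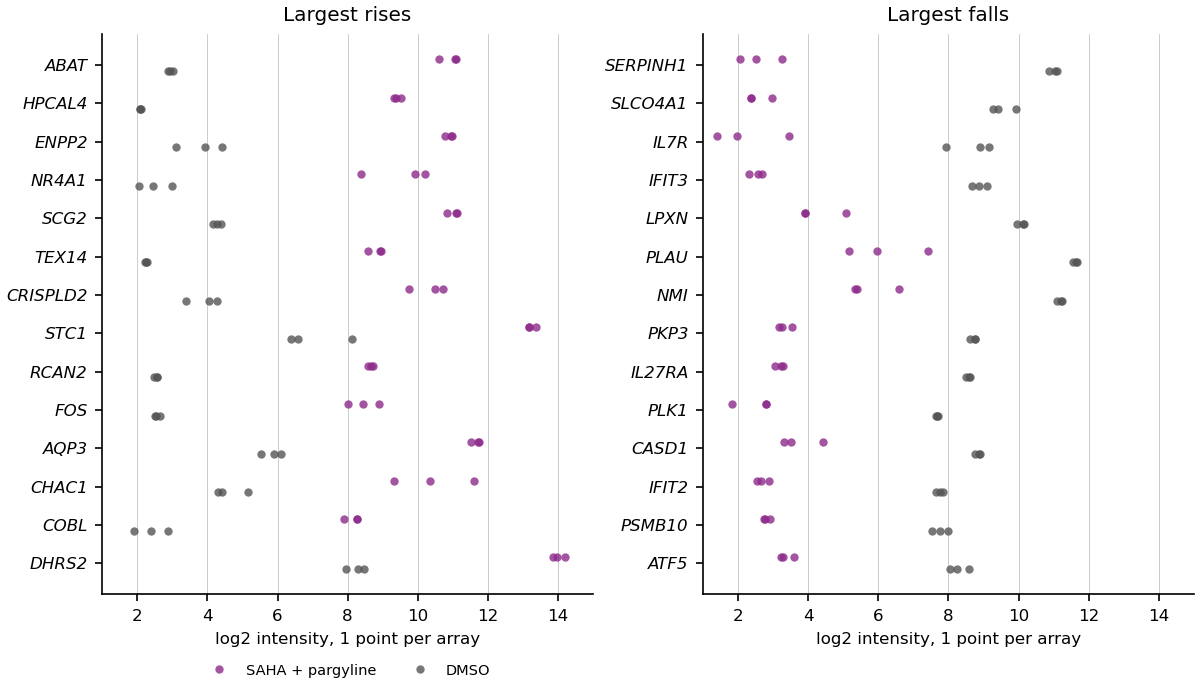
Log2 intensity of the 14 largest rises (left) and 14 largest falls (right), 1 point per array, combination in purple and DMSO in grey. The 3 purple and 3 grey points of each gene do not overlap; SERPINH1 reads 2.50, 2.04 and 3.24 on the combination arrays.

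These leading genes were set against the single drugs by direct tests; comparisons with DMSO share the same 3 DMSO arrays, so values of each drug against DMSO are given only side by side. Across all genes, 943 were higher (7.88%) and 1042 lower (8.71%) with the combination than with SAHA alone, while 2856 were higher (23.9%) and 2826 lower (23.6%) than with pargyline alone. Without combination replicate 2 the counts against SAHA were 607 higher and 632 lower, and in a fit of these 2 groups alone 616 and 614. Of the 14 largest rises, 7 were higher than with SAHA, and all 14 were higher than with pargyline. The 7 were ABAT, NR4A1, SCG2, TEX14, FOS, CHAC1 and COBL, of which ABAT, NR4A1 and FOS did not pass in the fit of these 2 groups alone, nor NR4A1 without combination replicate 2 (2.37). NR4A1 averaged 9.51 with the combination, 6.93 with SAHA, 2.73 with pargyline and 2.50 with DMSO, and the difference from SAHA was 2.58 ± 0.56 (adjusted p = 0.0127). CHAC1 differed from SAHA by 3.30 ± 0.50 (adjusted p = 0.00264), FOS by 1.47 ± 0.26 and TEX14 by 1.71 ± 0.21. Of the 14 largest falls, 2 were lower than with SAHA, PLK1 (-0.95 ± 0.26) and IL27RA (-0.65 ± 0.06), and all 14 were lower than with pargyline. The call of PLK1 against SAHA was lost in 5 alternatives (-1.0 to -0.62), among them without combination replicate 2 (-0.62) and without any 1 of the 3 SAHA arrays. Over the 14 rises the median change against DMSO was 6.31 with the combination, 5.63 with SAHA and 0.52 with pargyline. Over the 14 falls it was -5.42, -5.22 and 0.25 in the same order. The 14 rises and 14 falls were picked by the size of their combination change against DMSO, on these same combination arrays. That choice favours the combination in their counts and medians beside each single drug, by an amount that was not tested.

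The genes of the drugs' own targets changed unevenly. HDAC5, a class IIa deacetylase that shuttles between nucleus and cytoplasm, read 6.89, 6.90 and 6.60 on the combination arrays, against 3.35, 2.89 and 3.28 on the DMSO arrays (3.63 ± 0.19), and HDAC3, the catalytic subunit of the NCoR and SMRT corepressors, read 11.67, 11.53 and 11.60 on the combination arrays, against 10.78, 10.64 and 10.54 on the DMSO arrays (0.95 ± 0.09). HDAC7, a class IIa member, fell and read 2.63, 2.64 and 2.60 on the combination arrays, against 5.71, 5.90 and 5.46 on the DMSO arrays (-3.07 ± 0.41). HDAC9 passed at 1.08 ± 0.37 (adjusted p = 0.0355), a call lost without combination replicate 2 or 3, without any 1 of the 3 DMSO arrays, or with quantile normalization. HDAC1 (-0.02 ± 0.04), HDAC2 (-0.15 ± 0.07), HDAC4 (0.01 ± 0.16), HDAC6 (0.14 ± 0.08) and HDAC11 (0.08 ± 0.07) did not pass, and HDAC8 and HDAC10 were not analysed here. KDM1A read 10.18, 10.26 and 10.28 on the combination arrays, against 10.48, 10.53 and 10.32 on the DMSO arrays, a difference of -0.20 ± 0.09 that did not pass (adjusted p = 0.0993). Among its CoREST partners, the scaffold gene RCOR1 (0.31 ± 0.07), PHF21A (0.66 ± 0.17) and HMG20B (0.70 ± 0.06) rose and ZMYM3 (-1.42 ± 0.20) fell, RCOR1 no longer passing with centred arrays (0.14). Of the 11 measured partners, 4 rose (36.4%) and 1 fell (9.09%), beside 24.3% and 24.0% of all genes. With centred arrays 3 of the partners rose and 5 fell. MAOA rose by 1.49 ± 0.11, and MAOB was at the low level in both groups. Lower than with SAHA alone were KDM1A (-0.41 ± 0.09), HDAC1 (-0.17 ± 0.04), HDAC2 (-0.27 ± 0.07) and HDAC3 (-0.33 ± 0.09). These calls were lost in 1, 6, 4 and 6 alternatives, in that order. KDM1A changed against DMSO by 0.21 with SAHA alone and by -0.44 with pargyline alone. Of the 9 measured deacetylases 3 rose and 1 fell as deposited, and 3 rose and 3 fell with centred arrays. These are transcript levels, and neither drug's action on the enzymes was measured.

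CDKN1A, which encodes p21, was among the strongest rises of the cell cycle inhibitors. It read 12.28, 12.29 and 11.32 on the combination arrays, against 7.13, 7.10 and 6.96 on the DMSO arrays, with no overlap, a change of 4.90 ± 0.25 (adjusted p = 1.93e-07). It was also higher than with SAHA alone by 1.08 ± 0.25 (adjusted p = 0.0166). That call was lost in 4 alternatives (0.91 to 1.08), among them without combination replicate 1 or 2 or SAHA replicate 3 (0.91 to 0.92). CDKN1C, the p57 gene, rose by 2.82 ± 0.33 and CDKN2D, the p19 gene, by 0.84 ± 0.10, while CDKN1B, the p27 gene, did not pass (-0.14 ± 0.19). Of 20 measured cell cycle inhibitors and antiproliferative genes, 10 rose and 4 fell (10 and 9 with centred arrays), beside 24.3% and 24.0% of all genes, with a median of 0.44. BTG1 (1.50 ± 0.09) and TOB1 (1.30 ± 0.07), both antiproliferative adaptors of messenger RNA decay, rose, and TXNIP, an arrestin that restrains glucose uptake, rose by 1.64 ± 0.19 but was lower than with SAHA (a difference of -1.72 ± 0.19).

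Genes of mitosis fell almost without exception. Of 61 measured mitosis genes, 0 rose and 58 fell (95.1%, against 24.0% of all genes), with a median of -1.78 against -0.015 over all genes. PLK1, the largest fall of the list, a kinase that drives mitotic entry and spindle assembly, read 2.79, 1.82 and 2.78 on the combination arrays, against 7.65, 7.66 and 7.70 on the DMSO arrays (-5.20 ± 0.26), and each combination array was below 3. AURKB, the kinase of the chromosomal passenger complex, read 9.11, 8.11 and 8.76 on the combination arrays, against 11.72, 11.63 and 11.53 on the DMSO arrays (-2.96 ± 0.23), and AURKA, the kinase of spindle poles, changed by -2.56 ± 0.12. All 10 mitotic kinases and all 13 kinesins fell, with KIF20A, a motor of the central spindle, at -3.46 ± 0.23. HMMR, a spindle protein that is also the receptor of hyaluronan, read 6.28, 5.78 and 7.38 on the combination arrays, against 10.24, 10.14 and 10.44 on the DMSO arrays (-3.79 ± 0.34). Among genes of chromosome condensation and mitotic exit, CDCA3 fell by 3.61 on the log2 scale, the ubiquitin-conjugating enzyme UBE2C by 3.07 and the condensin subunit NCAPH by 2.98. Against SAHA alone, 48 of the 61 were lower and 0 were higher, and against pargyline alone 55 were lower and 2 higher. The median of the list against DMSO was -1.78 with the combination, -0.98 with SAHA and -0.56 with pargyline, and 1 of the 61 passed the interaction test described further on.

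Promoters of mitosis genes are known for 2 elements, the CHR (TTTGAA) bound by the MuvB complexes and the CCAAT box bound by NF-Y. In windows from 250 bases before to 50 after each annotated start (RefSeq, GRCh38.p14), searched on both strands, 37 of the 52 mitosis genes with a window held a CHR (71.2%), against 15.6% of the 9563 tested genes with one. A gene counts as holding an element when any of its listed windows does, a choice made, like the pairing of elements with lists and the windows shown, after results had been seen. The CCAAT box was in 38 of the 52 (73.1%, against 44.2%). Of the 37 with a CHR 36 fell, and of the 15 without one 13 fell. Of the 1451 other tested genes with a CHR, 20.8% rose and 25.2% fell, close to the 25.5% and 25.3% of all genes with a window. DNA replication genes held the CHR in 3 of 43 windows (6.98%). A match is a description of the letters and not of binding. The windows of PLK1 (chr16:23678639-23678938, plus strand) and HMMR (chr5:163460382-163460681, plus strand), the largest falls of the list with a CHR, are shown because they carry both elements close to the start. Capitals mark the CHR and the CCAAT box in either orientation. With position 0 as the first base after the 250 upstream bases, the CHR of PLK1 begins at -29 and its CCAAT box at -73, and HMMR has 2 adjoining CHR matches at -28 and -22.
PLK1: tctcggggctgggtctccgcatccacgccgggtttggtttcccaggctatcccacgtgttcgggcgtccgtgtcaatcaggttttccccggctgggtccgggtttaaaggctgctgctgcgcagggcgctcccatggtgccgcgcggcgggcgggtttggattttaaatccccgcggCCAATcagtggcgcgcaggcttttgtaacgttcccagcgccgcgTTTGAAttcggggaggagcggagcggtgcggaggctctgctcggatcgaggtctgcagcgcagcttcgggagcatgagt
HMMR: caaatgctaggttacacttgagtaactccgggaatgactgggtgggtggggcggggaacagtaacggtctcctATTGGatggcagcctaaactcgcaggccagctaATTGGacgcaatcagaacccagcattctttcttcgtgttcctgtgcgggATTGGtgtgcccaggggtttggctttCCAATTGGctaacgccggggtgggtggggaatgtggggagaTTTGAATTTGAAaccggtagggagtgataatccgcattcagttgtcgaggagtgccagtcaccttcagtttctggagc

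Genes that prepare cells for division fell with the mitosis genes. Of 31 cyclin, CDK and E2F genes, 21 fell and 3 rose, with a median of -1.52. CCNB2 (-2.73 ± 0.17), CCNA2 (-2.46 ± 0.17) and CCNB1 (-2.27 ± 0.12), the cyclins of the G2 phase and mitosis, fell, as did the transcription factor genes FOXM1 (-2.28 ± 0.14) and E2F8 (-2.54 ± 0.14). CCND3, a G1 cyclin, rose by 1.23 ± 0.12, whereas CCND1 fell (-1.61 ± 0.32). Of 49 DNA replication genes, 38 fell and 7 rose, with a median of -0.97, and 29 were lower than with SAHA. TYMS, the thymidylate synthase gene, averaged 10.72 with the combination and 14.29 with DMSO (-3.57 ± 0.16), the largest change of the list. CDT1, the licensing factor that loads the replicative helicase, changed by -2.58 ± 0.12, LIG1, the ligase of lagging strands, by -1.98 ± 0.28 and the helicase subunit MCM2 by -1.76 ± 0.16. RRM2 did not pass (0.23 ± 0.18), and the salvage kinase TK1 (0.66 ± 0.15) and the origin subunit ORC4 (1.06 ± 0.09) rose. Of 43 DNA repair and checkpoint genes, 28 fell and 6 rose, with BARD1, the partner of BRCA1, at -2.05 ± 0.10, RAD51D at -3.43 ± 0.23 and the checkpoint kinase CHEK1 at -1.57 ± 0.17. FANCF, a subunit of the Fanconi core complex, rose by 2.42 ± 0.17 from the low level with DMSO.

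Ribosome biogenesis genes also fell: 26 of 37 fell and 1 rose, with a median of -0.69. UBTF, a factor of RNA polymerase I, changed by -3.09 ± 0.09, and UTP20 (-2.43 ± 0.18) and WDR74 (-1.98 ± 0.09) work in assembly of the ribosomal subunits. UTP3 was the 1 that rose (0.61 ± 0.07).

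Cholesterol synthesis genes rose along nearly the whole pathway. The pathway makes cholesterol from acetyl-CoA in a mevalonate arm and a sterol arm, and its genes are known targets of the SREBP factors. Of 26 measured genes of synthesis, uptake and regulation, 21 rose and 3 fell (80.8% and 11.5%), with a median of 1.31. HMGCS1, which makes the precursor of mevalonate, read 13.95, 13.97 and 13.01 on the combination arrays, against 10.14, 9.64 and 10.55 on the DMSO arrays, with no overlap, a change of 3.53 ± 0.29 (adjusted p = 4.48e-06), and a further probe set of the gene gave 4.76. In the mevalonate arm 6 of 7 rose, with IDI1 at 2.23 ± 0.15, and ACAT2, which condenses acetyl-CoA, fell (-0.78 ± 0.09). All 9 genes of the sterol arm rose, among them SQLE, which oxidises squalene (2.18 ± 0.16), MSMO1 (2.43 ± 0.19), SC5D (2.20 ± 0.15) and DHCR7 (1.78 ± 0.19). TM7SF2, a sterol reductase, read 8.76, 9.18 and 8.94 on the combination arrays, against 4.53, 3.39 and 3.76 on the DMSO arrays (5.06 ± 0.25), the largest change of the pathway. Its DMSO mean, 3.89, was at the low level. The feedback gene INSIG1, which retains SREBPs in the endoplasmic reticulum, read 14.95, 14.86 and 14.40 on the combination arrays, against 11.35, 10.46 and 11.71 on the DMSO arrays (3.57 ± 0.29). On the efflux side ABCA1 (-1.61 ± 0.29) and the sterol sensor NR1H3 (-1.23 ± 0.22) fell and ABCG1 rose (2.04 ± 0.15).

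Against SAHA alone, 14 of the 26 cholesterol genes were higher and 4 lower, and 8 of the 9 sterol arm genes were higher. Compared with pargyline alone, 13 of the 26 were higher and 3 lower, and in the sterol arm 4 were higher and 1 lower. HMGCS1 averaged 13.64 with the combination, 11.64 with SAHA, 12.13 with pargyline and 10.11 with DMSO, and it differed from SAHA by 2.00 ± 0.29 (adjusted p = 0.00222). SREBF1, which encodes the SREBP of fatty acid synthesis, rose against DMSO (0.98 ± 0.26) but was lower than with SAHA (-2.18 ± 0.26). The sterol arm's median against DMSO was 1.78 with the combination, 0.56 with SAHA and 1.58 with pargyline. A sterol element (TCACNCCAC) was in 1 of 23 promoter windows of the list (4.35%, against 1.50% of all), that of SREBF2, while CCAAT boxes were in 18 of 23 (78.3%, against 44.2%). SREBF2, the SREBP of cholesterol synthesis, rose by 0.46 ± 0.12 (0.28 and not past the threshold as the mean of its probe sets), and its window (chr22:41832855-41833154, plus strand) is shown because it is the 1 with the element, in capitals at -133, beside a CCAAT box in reverse at -106.
SREBF2: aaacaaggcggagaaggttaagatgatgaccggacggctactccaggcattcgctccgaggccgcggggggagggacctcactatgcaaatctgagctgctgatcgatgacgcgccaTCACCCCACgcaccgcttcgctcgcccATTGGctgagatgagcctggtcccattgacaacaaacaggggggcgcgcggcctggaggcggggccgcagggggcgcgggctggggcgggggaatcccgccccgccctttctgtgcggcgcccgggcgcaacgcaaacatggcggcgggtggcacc

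Fatty acid genes rose as well, with exceptions. Of 34 measured genes, 23 rose and 3 fell, with a median of 0.63. FASN, the fatty acid synthase, read 12.95, 13.24 and 12.43 on the combination arrays, against 10.71, 10.52 and 11.16 on the DMSO arrays (2.08 ± 0.32, adjusted p = 0.00032). Every combination array was above every DMSO array, and FASN differed from SAHA by 2.09 ± 0.32 (adjusted p = 0.00263). SCD, which desaturates fatty acids, rose by 1.34 ± 0.22, LPIN1, a phosphatidate phosphatase, by 2.11 ± 0.23, and the carrier FABP4 by 5.02 ± 0.32 from the low level. ANGPTL4, an inhibitor of lipoprotein lipase, read 8.74, 9.04 and 8.67 on the combination arrays, against 5.84, 5.79 and 4.72 on the DMSO arrays (3.37 ± 0.28), and its change was 0.03 with SAHA alone and 3.93 with pargyline alone. ETFDH (3.24 ± 0.15) and CPT1A (1.17 ± 0.09), both of mitochondrial fatty acid oxidation, rose. ACSL5, which activates fatty acids, fell by 3.19 on the log2 scale, and G0S2, an inhibitor of lipolysis, by 2.59.

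Targets of ATF4, the factor that responds to amino acid shortage and to stress of the endoplasmic reticulum, rose and fell in nearly equal numbers. Of 45 measured genes, 13 rose and 12 fell (12 and 20 with centred arrays), with a median of 0. These shares, 28.9% and 26.7%, were close to the 24.3% and 24.0% of all genes. The rises were led by CHAC1 and by ATF3, a stress-induced repressor that read 10.01, 10.17 and 9.59 on the combination arrays, against 4.28, 4.44 and 3.77 on the DMSO arrays (5.76 ± 0.20). GDF15, a stress cytokine, read 11.17, 11.96 and 11.27 on the combination arrays, against 6.51, 7.46 and 4.73 on the DMSO arrays (5.23 ± 0.56), and its combination arrays all exceeded its DMSO arrays. DDIT3, which encodes the stress factor CHOP, read 10.74, 11.49 and 9.99 on the combination arrays, against 8.48, 8.39 and 7.78 on the DMSO arrays (2.53 ± 0.33, adjusted p = 0.0001). ASNS, the asparagine synthetase gene, rose by 2.38 ± 0.22 and DDIT4, a restraint on mTORC1, by 2.58 ± 0.14, while ATF4 itself rose by 0.44 ± 0.13. The call of ATF4 was lost in 4 alternatives (0.27 to 0.44), among them with centred arrays (0.27) and without combination replicate 2 (0.29) or DMSO replicate 3 (0.38). ATF5 fell to 3.60, 3.28 and 3.22 on the combination arrays, against 8.58, 8.25 and 8.05 on the DMSO arrays. ALDH18A1 (-1.49 ± 0.09) and SHMT2 (-0.91 ± 0.04), enzymes of proline and glycine synthesis, fell. None of 10 tRNA synthetase genes rose and 3 fell. Against SAHA alone, 22 of the 45 were higher and 1 lower, including 6 of the synthetases, the cystine transporter SLC7A11 (1.68 ± 0.29) and the pseudokinase TRIB3 (1.55 ± 0.31), neither of which passed against DMSO. Compared with pargyline alone, 7 of the 45 were higher and 20 lower. The median of the list against DMSO was 0 with the combination, -0.31 with SAHA and 0.44 with pargyline.

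A composite element of C/EBP and ATF4 (CARE, TGATGNAA) was in 13 of 37 promoter windows of these genes (35.1%, against 3.43% of all). Of the 13, 4 rose and 3 fell, and of the 24 without it 8 rose and 5 fell. The window of CHAC1 (chr15:40953221-40953520, plus strand) is shown as the largest change with the element, in capitals and in reverse at -209.
CHAC1: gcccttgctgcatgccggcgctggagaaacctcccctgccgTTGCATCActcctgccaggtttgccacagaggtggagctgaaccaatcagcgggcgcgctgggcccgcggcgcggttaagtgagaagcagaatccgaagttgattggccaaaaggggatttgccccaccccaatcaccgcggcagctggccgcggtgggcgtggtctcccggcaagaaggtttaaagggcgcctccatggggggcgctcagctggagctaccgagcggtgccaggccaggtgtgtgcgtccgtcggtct

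Genes of the endoplasmic reticulum changed in both directions. Of 10 measured chaperones there 7 rose and 2 fell, and of all 26 measured genes of folding and degradation 15 rose and 8 fell (57.7% and 30.8%), and 13 were higher and 0 lower than with SAHA. Compared with pargyline alone, 10 of the 26 were higher and 8 lower. HSPA5, the BiP chaperone, read 14.75, 14.79 and 14.40 on the combination arrays, against 13.83, 13.79 and 13.97 on the DMSO arrays (0.79 ± 0.10), a change of less than 1 unit that exceeded the spread of both groups. HERPUD1, a degradation factor, rose by 1.53 ± 0.20, DNAJB9 by 1.27 ± 0.11 and ERO1B, an oxidase of disulfide formation, by 2.16 ± 0.23. XBP1, a transcription factor of the unfolded protein response, fell (-1.52 ± 0.10). Of 27 cytosolic and mitochondrial heat shock genes, 6 rose (22.2%) and 11 fell (40.7%), beside 24.3% and 24.0% of all genes. With centred arrays 4 of the 27 rose and 20 fell. HSPB8 (3.20 ± 0.25) and DNAJB2 (2.74 ± 0.28) rose, and HSPB1 (-1.94 ± 0.11) and HSPE1 (-1.22 ± 0.10) fell.

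Genes of oxidative stress, hypoxia and metal binding mostly rose. Of 42 measured genes of the NRF2 and oxidative stress list, 25 rose and 7 fell, with a median of 0.50. HMOX1, which degrades heme, read 12.53, 12.98 and 12.38 on the combination arrays, against 8.12, 8.29 and 6.87 on the DMSO arrays (4.87 ± 0.35), and it was higher than with SAHA by 2.67 ± 0.35 (adjusted p = 0.00161). AKR1C3, a ketosteroid reductase whose probe set can bind transcripts of close relatives, rose by 2.66 ± 0.09, and SQSTM1, an autophagy receptor, by 2.06 ± 0.10. KEAP1, the adaptor that marks NRF2 for degradation, fell by 2.84 on the log2 scale and the peroxidase GPX1 by 2.36. Of 42 hypoxia and glycolysis genes, 24 rose and 5 fell, and 22 were higher and 0 lower than with SAHA. Compared with pargyline alone, 17 of these 42 were higher and 12 lower. SLC2A3, a glucose transporter of high affinity, read 13.19, 13.23 and 12.76 on the combination arrays, against 8.25, 8.37 and 8.57 on the DMSO arrays (4.66 ± 0.15), ALDOC, an aldolase, changed by 3.52 ± 0.21 and EPAS1, the gene of HIF-2alpha, by 2.98 ± 0.07. VEGFA fell (-0.86 ± 0.19), and HIF1A did not pass (0.20 ± 0.09). The core hypoxia element (ACGTG) was in 21 of 37 windows of the list (56.8%, against 30.5%). Of the 21 genes with it 12 rose and 2 fell, and of those without it 8 rose and 2 fell. Of the other tested genes with the element, 26.8% rose and 29.7% fell. All 6 metallothionein genes above the low level rose, from 0.45 for MT2A to 1.08 for MT1F, and so did the zinc exporter SLC30A1 (1.46 ± 0.06) and the zinc-sensing factor MTF1 (1.65 ± 0.09). Probe sets of metallothioneins can bind transcripts of more than 1 family member, and a metal element (TGCNCNC) was in 5 of 5 windows of the list but also in 69.4% of all.

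Lysosome and autophagy genes rose broadly. Of 41 measured lysosome genes, 30 rose and 3 fell (73.2% and 7.32%), with a median of 0.73. NEU1, a sialidase, read 12.49, 12.48 and 11.49 on the combination arrays, against 8.38, 8.27 and 7.92 on the DMSO arrays (3.96 ± 0.31). LAMP3, a membrane glycoprotein of lysosomes, read 9.08, 9.33 and 9.51 on the combination arrays, against 3.53, 3.73 and 3.59 on the DMSO arrays (5.69 ± 0.13), at the low level with DMSO. FUCA1, a fucosidase (3.57 ± 0.15), NPC1, the lysosomal cholesterol exporter (2.45 ± 0.11), and MCOLN1, a calcium channel (2.05 ± 0.17), rose, as did TFEB, the factor that drives lysosomal genes (2.62 ± 0.21). CTSZ (-0.64 ± 0.09) and NAGLU (-0.76 ± 0.08) fell. Of 29 autophagy genes, 22 rose and 2 fell, including GABARAPL1 (2.98 ± 0.09) and MAP1LC3B (1.97 ± 0.12), the ubiquitin-like proteins of autophagosome membranes, the kinase gene ULK1 (1.91 ± 0.17) and the receptor gene OPTN (1.81 ± 0.11). Genes of oxidative phosphorylation were split, with 12 of 35 higher and 13 lower (8 and 19 with centred arrays). The shares were 34.3% and 37.1%, beside 24.3% and 24.0% of all genes. The coactivator gene PPARGC1A rose by 3.63 ± 0.23.

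**Figure D3:**
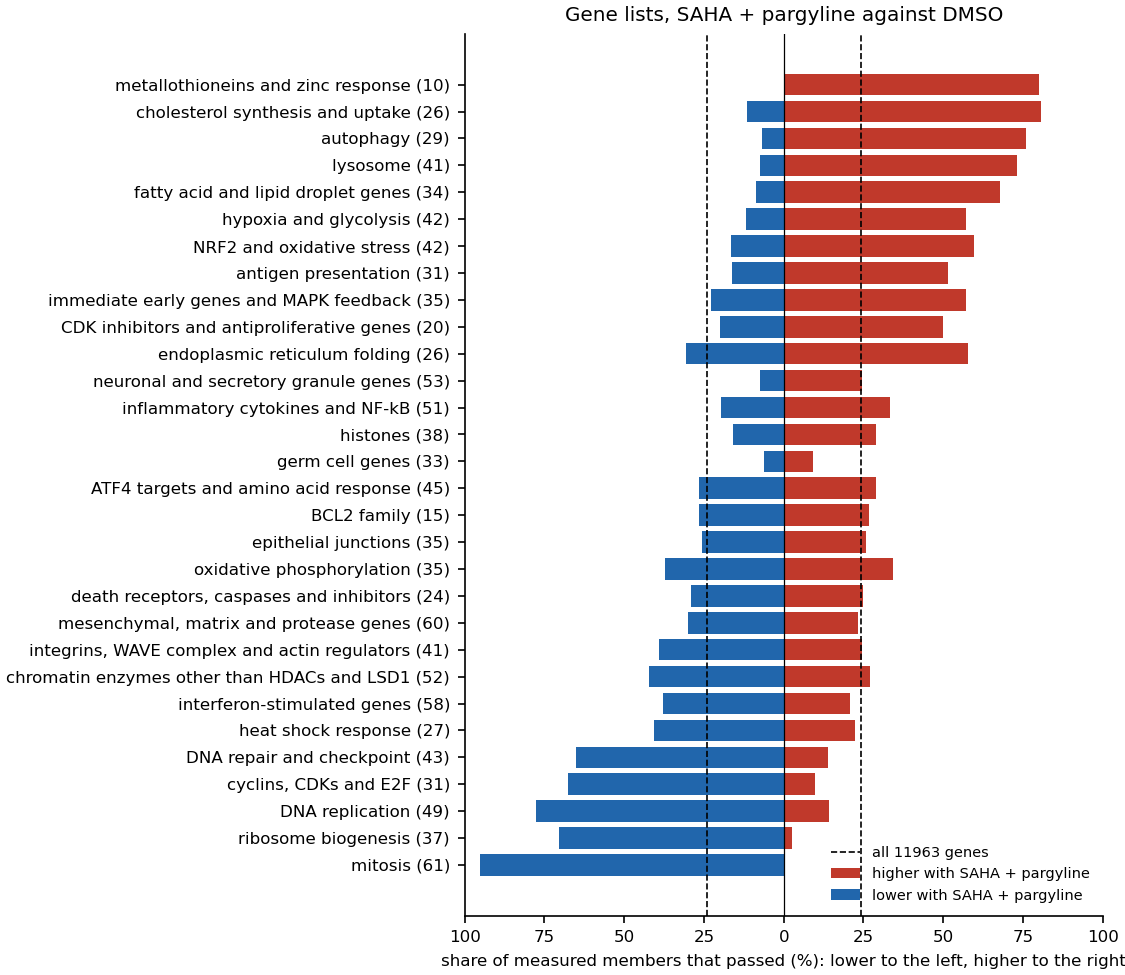
Share of measured members that rose (red, to the right) and fell (blue, to the left) with the combination against DMSO for 30 gene lists, number measured in brackets. Dashed lines mark 24.3% risen and 24.0% fallen over all 11963 genes; mitosis genes reach 95.1% fallen and cholesterol genes 80.8% risen. The lists of drug targets and of cell type and breast markers are not drawn, and some genes, such as SQSTM1 and VEGFA, are in more than 1 list.

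Interferon-stimulated genes fell more often than they rose. Of 58 measured genes, 22 fell and 12 rose (37.9% and 20.7%, with 40 and 11 genes with centred arrays), 14 were at the low level in both groups and the median was -0.12. IFIT3, an antiviral protein gene, read 2.31, 2.69 and 2.56 on the combination arrays, against 9.11, 8.88 and 8.68 on the DMSO arrays (-6.37 ± 0.15), and IFIT2 read 2.66, 2.53 and 2.87 on the combination arrays, against 7.85, 7.75 and 7.65 on the DMSO arrays (-5.06 ± 0.28). IFI44 (-2.47 ± 0.40), the guanylate-binding gene GBP1 (-2.43 ± 0.21) and the RNA sensor TLR3 (-2.75 ± 0.21) fell, whereas IFI6 (3.33 ± 0.12) and GBP2 (2.14 ± 0.22) rose. Compared with pargyline alone, 10 of the 58 were higher and 29 lower. Against SAHA alone 9 were higher and 0 lower, with IFI35 at 2.31 ± 0.14 and IFI44 at 1.75 ± 0.40. The call of IFI44 was lost in 3 alternatives (1.46 to 1.75), among them without SAHA replicate 1 or 2 (1.46 and 1.47). The interferon-stimulated response element, searched as GAAA, 2 bases of any kind and GAAA, was in 26 of 45 windows (57.8%, against 4.13% of all). Of these 26 genes 11 fell and 3 rose, and of the 19 genes without the element 8 fell and 6 rose. IFIT3's window (chr10:89327747-89328046, plus strand) is shown as the largest change of the list, with 2 elements in reverse in capitals at -156 and -122.
IFIT3: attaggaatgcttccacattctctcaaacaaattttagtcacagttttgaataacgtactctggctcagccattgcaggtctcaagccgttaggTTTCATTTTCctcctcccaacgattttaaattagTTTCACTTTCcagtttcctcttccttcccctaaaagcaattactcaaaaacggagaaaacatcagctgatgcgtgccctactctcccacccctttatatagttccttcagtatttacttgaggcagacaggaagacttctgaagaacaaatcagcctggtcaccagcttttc

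Antigen presentation genes went both ways by role. All 6 measured class I genes rose, with HLA-B at 1.88 ± 0.10, HLA-C at 1.35 ± 0.11 and B2M at 0.30 ± 0.03, and their probe sets can bind transcripts of related genes. Of 9 genes of the immunoproteasome and of peptide loading, 5 fell and 3 rose: PSMB10 read 2.74, 2.75 and 2.91 on the combination arrays, against 7.99, 7.75 and 7.54 on the DMSO arrays (-4.96 ± 0.15), PSMB8 (-2.92 ± 0.31) and TAP2 (-1.48 ± 0.12) fell, and PSMB9 rose (2.63 ± 0.16). Of 12 class II genes 8 were at the low level in both groups and 4 rose from it (4 rises and 7 falls with centred arrays), HLA-DMB (5.57 ± 0.14), HLA-DPA1 (4.46 ± 0.23), HLA-DPB1 (4.13 ± 0.35) and HLA-DMA (3.22 ± 0.19), while their regulator CIITA stayed at the low level. MICA (2.10 ± 0.09) and ULBP2 (2.22 ± 0.15), ligands of the natural killer receptor NKG2D, rose. Among 51 inflammatory genes, 17 rose and 10 fell (16 and 30 with centred arrays), and 24 were at the low level in both groups. The shares were 33.3% and 19.6%, beside 24.3% and 24.0% of all genes. The chemokine CXCL8 read 10.76, 11.93 and 11.64 on the combination arrays, against 6.79, 7.14 and 6.65 on the DMSO arrays (4.58 ± 0.31), PTGS2, a cyclooxygenase, changed by 3.00 ± 0.28 and the NF-kB inhibitor TNFAIP3 by 2.40 ± 0.21. NFKB1, the p50 gene, read 4.62, 4.53 and 5.36 on the combination arrays, against 9.11, 9.42 and 9.36 on the DMSO arrays (-4.46 ± 0.36), NFKB2 rose (2.41 ± 0.15), and the cytokine LIF fell (-3.65 ± 0.62).

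Immediate early genes rose more often than they fell. Of 35 measured immediate early and MAPK feedback genes, 20 rose and 8 fell (20 and 14 with centred arrays), with a median of 0.86. NR4A2, a nuclear receptor gene of the NR4A family, read 9.60, 9.43 and 9.48 on the combination arrays, against 3.68, 3.43 and 4.63 on the DMSO arrays (5.59 ± 0.26), EGR1, a zinc finger factor, changed by 3.05 ± 0.27, JUNB by 2.46 ± 0.09 and the phosphatase gene DUSP10 by 3.06 ± 0.09. FOSL1, an AP-1 subunit high in this line, fell and read 8.74, 8.61 and 8.61 on the combination arrays, against 11.75, 11.67 and 11.47 on the DMSO arrays (-2.98 ± 0.10). KLF2, a zinc finger factor, fell as well (-3.33 ± 0.30). SPRY1, a brake on receptor signalling, fell by 1.47 on the log2 scale.

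Most genes of other lineages stayed at the low level. Of 53 neuronal and secretory granule genes, 13 rose, 4 fell (12 and 37 with centred arrays) and 34 were at the low level in both groups, and the share that rose, 24.5%, was close to the 24.3% of all genes. MAP2, a microtubule protein of dendrites, read 7.94, 7.80 and 7.79 on the combination arrays, against 2.14, 2.02 and 2.08 on the DMSO arrays (5.76 ± 0.16), SYT11 changed by 5.34 ± 0.13 and MAPT, the tau gene, by 2.45 ± 0.18, while REST, a repressor of neuronal genes, did not pass (-0.30 ± 0.20). Of 33 germ cell genes, 3 rose (9.09%) and 2 fell (6.06%), below the 24.3% and 24.0% of all genes. In both groups 26 were at the low level, and with centred arrays 3 rose and 28 fell. Beside TEX14 the rises were MAGEB2 (3.46 ± 0.22) and PAGE4 (1.77 ± 0.42). Among 10 endothelial markers, 9 averaged below 4.0 in both groups, and KDR (0.74 ± 0.12) and EGFL7 (1.55 ± 0.38) rose. These are 20.0% of the list, beside 24.3% of all genes. The summed linear level of the list was 64.6 to 69.9 on the combination arrays and 49.5 to 53.0 on the DMSO arrays. PECAM1, VWF and CDH5 were at the low level.

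Adhesion and matrix genes included some of the largest falls. Of 60 mesenchymal, matrix and protease genes, 14 rose and 18 fell (14 and 37 with centred arrays), which is 23.3% and 30.0%, near the 24.3% and 24.0% of all genes. Beside SERPINH1 and PLAU, the laminin chain LAMB1 (-4.74 ± 0.17), the coagulation inhibitor TFPI (-4.09 ± 0.26), the urokinase receptor PLAUR (-2.50 ± 0.21) and the transcription factor ZEB2 (-3.36 ± 0.36) fell, and SNAI2 (1.51 ± 0.11), TIMP2 (2.22 ± 0.22) and the tissue plasminogen activator PLAT (2.07 ± 0.10) rose. VIM (-0.06 ± 0.04) and ZEB1 (-0.26 ± 0.13) did not pass. Of 41 integrin and actin genes, 10 rose and 16 fell (8 and 23 with centred arrays). The share that rose, 24.4%, was that of all genes, and the share that fell was 39.0%, against 24.0% of all genes. TGFB1I1, an adaptor of focal adhesions, changed by -3.75 ± 0.16, the integrin ITGB4 by -3.34 ± 0.27 and the actin-severing protein GSN by 4.07 ± 0.20. Of 35 epithelial junction genes, 9 rose and 9 fell (25.7% each way), close to the shares of all genes, and 5 rose and 21 fell with centred arrays. JUP (2.91 ± 0.29) and KRT19 (2.66 ± 0.14) rose, EPCAM (-3.15 ± 0.22) and the envoplakin gene EVPL (-3.33 ± 0.15) fell, and CDH1 stayed at the low level. Of the 9 genes high in this line, 6 fell (66.7%, against 24.0% of all genes) and 0 rose. The largest of these falls after FOSL1 were those of CAV1 (-1.63 ± 0.11) and CD44 (-1.48 ± 0.14). Among 19 luminal markers, ERBB3 rose by 4.38 ± 0.12, and GATA3 (-3.48 ± 0.27) and ERBB2 (-3.22 ± 0.16) fell.

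Histone and chromatin genes were mixed. Of 38 histone genes, 11 rose and 6 fell (11 and 21 with centred arrays) and 19 were at the low level in both groups. The shares were 28.9% and 15.8%, beside 24.3% and 24.0% of all genes. The linker histone gene H1-10 (2.02 ± 0.17) and the core histone genes H4C8 (3.72 ± 0.16) and H2BC5 (3.11 ± 0.17) rose, and the centromere variant CENPA (-2.67 ± 0.16), also in the mitosis list, and H2AX (-1.09 ± 0.20) fell. Replication histone transcripts lack a long poly-A tail, and related histone genes can share a probe set. Of 13 acetyltransferase and reader genes, 8 fell and 0 rose, among them KAT2A (-1.97 ± 0.17) and KAT7 (-1.71 ± 0.13). Of 15 genes grouped as demethylases or their relatives, such as JARID2, 9 rose (60.0%) and 2 fell (13.3%), beside the same 24.3% and 24.0%. KDM7A changed by 2.74 ± 0.31 and PHF8 by -1.64 ± 0.14. DNMT3A, a DNA methyltransferase, fell by 2.89 on the log2 scale.

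Apoptosis genes changed in both directions. Of 15 BCL2 family genes, 4 rose and 4 fell (26.7% each way), close to the shares of all genes, and 3 rose and 8 fell with centred arrays. BIK (3.20 ± 0.51) and BCL2L11, the BIM gene (1.11 ± 0.33, a call lost without combination replicate 1 or DMSO replicate 3, at 0.91 and 0.90), rose, and BID (-3.03 ± 0.21), BAX (-1.43 ± 0.14) and BCL2 (-0.96 ± 0.15) fell, while MCL1 did not pass (0.15 ± 0.08). Of 24 genes of death receptors, caspases and their inhibitors, 6 rose and 7 fell (4 and 13 with centred arrays), also near the shares of all genes. The receptor gene TNFRSF10B (1.46 ± 0.05) and CASP9 (1.53 ± 0.15) rose, and CFLAR, which restrains caspase-8 (-2.83 ± 0.14), CASP4 (-2.89 ± 0.28) and XIAP (-1.46 ± 0.10) fell.

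**Figure D4:**
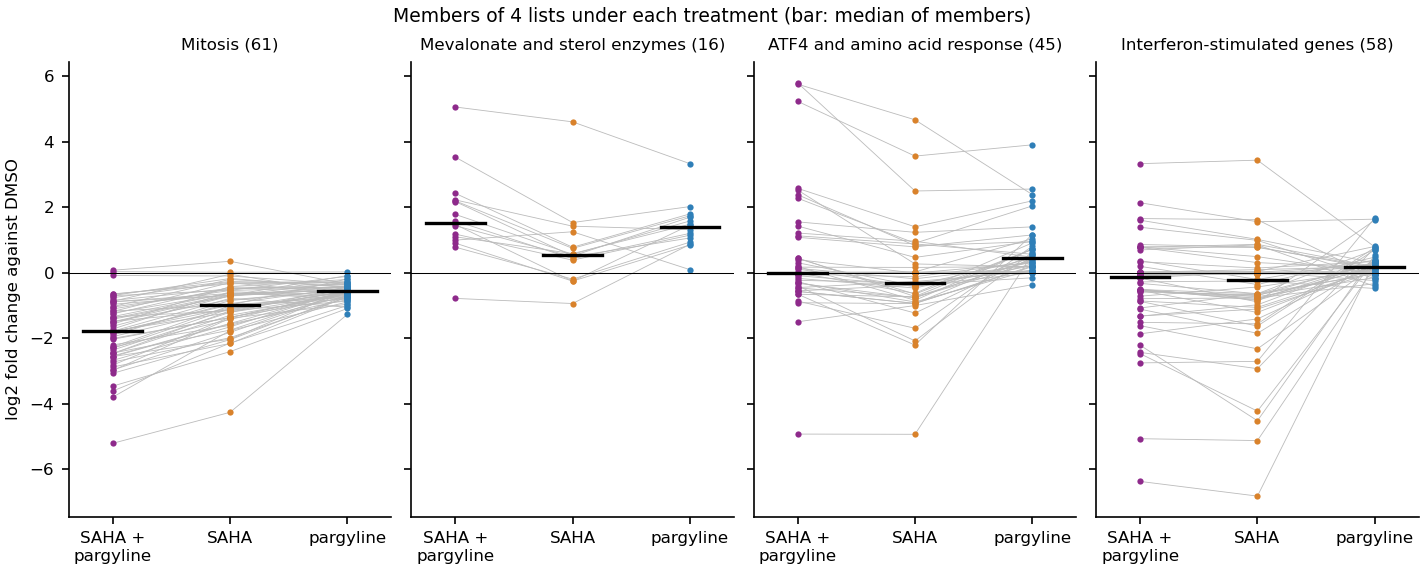
Log2 fold change against DMSO of each measured member of 4 lists, chosen after their values were seen, with the combination, SAHA and pargyline; grey lines join a gene and black bars are medians. All 3 treatments share the DMSO arrays. The mitosis median is -1.78 with the combination, -0.98 with SAHA and -0.56 with pargyline.

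An interaction term asked whether the combination differed from the sum of the single-drug log2 changes. It was positive for 153 genes (1.28%) and negative for 292 (2.44%). The 6 largest each way among genes that also changed against DMSO are given with all 4 groups. DDIT3 read 10.74, 11.49 and 9.99 with the combination, 8.42, 8.55 and 8.49 with SAHA, 8.53, 8.50 and 8.16 with pargyline and 8.48, 8.39 and 7.78 with DMSO, so that the single-drug arrays lay close to DMSO and the combination arrays above them all. Its term was 2.07 ± 0.46 (adjusted p = 0.0426). FASN averaged 12.87 with the combination, 10.78 with SAHA, 10.85 with pargyline and 10.80 with DMSO, a term of 2.04 ± 0.45 (adjusted p = 0.0405). CYFIP2, a subunit of the WAVE actin complex, averaged 10.14, 9.84, 3.43 and 5.27 in the same order of groups (2.14 ± 0.38), and its pargyline mean was at the low level. The terms of TEX14 (1.77 ± 0.30), IFI35 (1.77 ± 0.20) and HIP1, a clathrin adaptor (1.56 ± 0.23), were positive too. IFI35 averaged 5.57, 3.26, 8.32 and 7.78 in that order of groups. It thus fell with the combination against DMSO, though less than with SAHA, whose mean was at the low level. TEX14 averaged 2.19 with pargyline and 2.25 with DMSO, both at the low level. The terms of DDIT3 and FASN were positive in every alternative but close to the threshold: leaving out 1 array ended the call of DDIT3 for 10 of the 12 arrays (1.70 to 2.14) and that of FASN for 9 of the 12 (1.79 to 2.18).

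Below the sum, KLF2 stood apart in direction. It read 5.64, 5.76 and 6.48 with the combination, 9.86, 10.93 and 10.86 with SAHA, 8.77, 8.59 and 9.13 with pargyline and 9.28, 9.26 and 9.32 with DMSO. All 3 combination arrays were below the other 9, and the SAHA arrays were the highest (-4.13 ± 0.43, adjusted p = 0.00206). For ENPP2 (-4.03 ± 0.38), TM7SF2 (-2.88 ± 0.35) and BHLHE41, a hypoxia-induced repressor (-2.49 ± 0.48), each single drug raised the gene and the combination did not reach both log2 rises added together. ENPP2 and TM7SF2 averaged at the low level with DMSO (3.81 and 3.89), so that the size of their terms depends on the array's floor. The term of BHLHE41 no longer passed without any 1 of 5 arrays, combination replicates 1 and 2, SAHA replicate 2, pargyline replicate 3 and DMSO replicate 1 (-2.28 to -2.51). TM7SF2 averaged 8.96 with the combination, 8.50 with SAHA, 7.23 with pargyline and 3.89 with DMSO. ABCC3, an organic anion exporter, read 2.40, 2.23, 8.07 and 4.83 in the same order (-3.07 ± 0.51), and SULT1C2, a sulfotransferase, 3.70, 3.56, 7.17 and 4.06 (-2.98 ± 0.11). In both genes the combination and SAHA means lay at the low level, and the pargyline mean well above DMSO. Among the lists, 8 of 42 hypoxia and glycolysis genes, 7 of 35 immediate early genes and 6 of 42 oxidative stress genes had a negative term and 0 in each a positive one. Mesenchymal, matrix and protease genes had 7 of 60 negative and 0 positive. Integrin and actin genes had 5 of 41 negative and 2 positive, and ATF4 targets 5 of 45 negative and 1 positive. Over all genes 2.44% were negative and 1.28% positive. The lists given here were picked after their counts were seen. The interaction counts moved with single arrays: leaving out each array in turn gave 78 to 236 positive and 160 to 420 negative terms, the lowest without DMSO replicate 2 and without combination replicate 2. Both counts were highest, 236 and 420, without combination replicate 3.

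**Figure D5:**
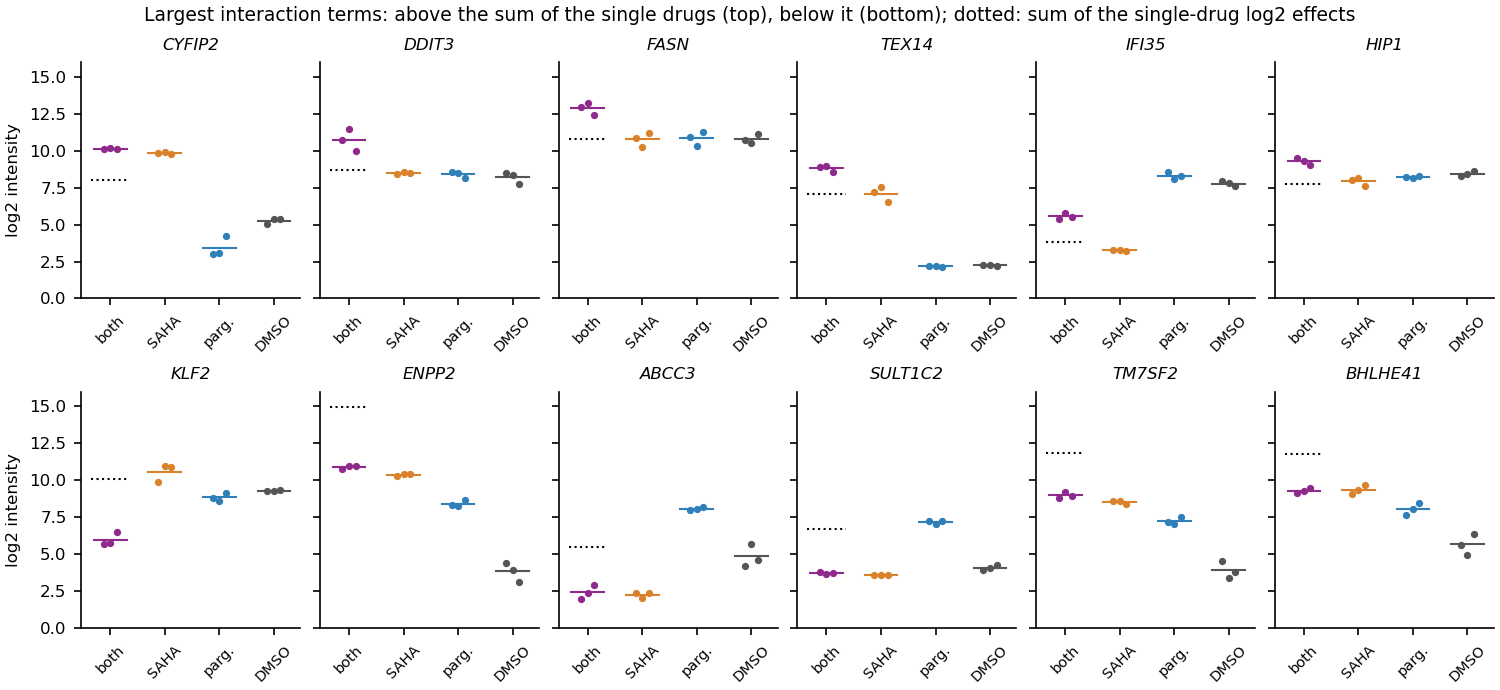
Log2 intensity of the 6 largest positive (top) and 6 largest negative (bottom) interaction terms, 1 point per array with group means as bars, in the order combination (both), SAHA, pargyline (parg.) and DMSO. The dotted line is the sum of the single-drug log2 changes added to the DMSO mean; DDIT3 and FASN lie above it by 2.07 and 2.04, and KLF2 below it by 4.13.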

How the data were processed

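Total RNA from MDA-MB-231 cultures was purified on silica columns with DNase I and made into biotin-labelled cRNA, per the labels' protocols, and hybridised to Affymetrix Human Genome arrays. The deposited values are log2 intensities from RMA, per the submitters' processing notes, which give no version; whether all arrays were normalized together is not given in the sources used here. The 12 arrays were grouped by their labels, 3 per group, and this number limits the precision. Of 22277 probe sets, 19064 named 1 gene, and the one with the highest mean over the 12 arrays stood for each of 11963 genes; 1043 naming several genes, 2108 naming none and 62 controls were left out of the gene tests.

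Group means were fitted to the deposited log2 values with limma 3.58.1 in R 4.3.3 (lmFit and eBayes, 8 residual degrees of freedom), without a replicate block. Contrasts were the combination against DMSO, SAHA and pargyline, and the combination minus SAHA minus pargyline plus DMSO. P-values were two-sided and Benjamini-Hochberg adjusted over all 11963 genes, with a threshold of 0.05. The fit was tested on simulated data. The genes named are the drug targets and CDKN1A, the 14 largest rises and falls that passed without overlap and with the higher mean above the median gene, the 6 largest interaction terms each way, and of each of 38 lists up to 8 members with the largest change, up to 3 that passed against the majority and any of a role group of 12 or fewer. The lists and the genes they hold were chosen with earlier results of these data known, and no list was tested as a set. Promoter windows came from RefSeq (GRCh38.p14). Alternatives covered normalization, centring, the choice of probe set, low-level filters, array weights, the samples fitted, a replicate block and leaving out each array. Figures and counts used Python 3.11.15 with pandas 2.3.3 and matplotlib 3.10.9.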

Additional observations from a re-analysis of the deposited data

Results flagged for a closer look

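Of the 28 genes with the largest changes, 4 had a combination effect that differed from the sum of the single-drug log2 effects in the interaction test (limma, adjusted over all genes). The term of ENPP2 was -4.03 (adjusted p = 0.00131), with means of 10.90 with the combination, 10.37 with SAHA, 8.38 with pargyline and 3.81 with DMSO. TEX14 had a term of 1.77 (adjusted p = 0.0153), with 8.81 with the combination, 7.11 with SAHA, 2.19 with pargyline and 2.25 with DMSO. The term of AQP3 was -1.70 (adjusted p = 0.0117), with means of 11.66, 11.05, 8.14 and 5.84 in the same order of groups. IL27RA had a term of -1.12 (adjusted p = 0.000398) and averaged 3.18, 3.83, 9.03 and 8.56 in that order, so that the combination and SAHA means lay below 4.0. With the mean of all their probe sets, the terms of AQP3 (-0.02) and IL27RA (-0.27) did not pass.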

How the results depend on the processing

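Of 639 genes given by the naming rule, 44 lost their call against DMSO in at least 1 alternative, 119 gained one, and 21 changed direction with at least 1 of the 2 values past the threshold. Of these 21, with centred arrays COX5A (-0.07), ATP5F1A (-0.15), ATP5MC3 (-0.05) and ATP5PO (-0.13) and 15 others, CDKN2B, HRK, APOE, HLA-DRA (-0.15 each), BOK, HSPB2, CD74, PKP1 (-0.16 each), MT3, H1-5, FOXC2 (-0.14 each), H1-1 (-0.17), H1-3 (-0.11), CD3D and CD14 (-0.12 each), were lower, and with the mean of probe sets BTG3 (0.19) and HLA-DQB1 (0.12) were higher. Of 210 of these genes that passed against SAHA 103 lost the call in at least 1 alternative, and of 63 with an interaction term 34, none with a change of direction; with the mean of probe sets the terms of AQP3 (-0.02) and IL27RA (-0.27) were lost. Against DMSO, a change of at least 2-fold left 1286 genes higher and 1168 lower, centring each array on its median gave 7648 lower, and leaving out each array gave 2718 to 2823 higher and 2646 to 2784 lower. With centring, lists with a median near 0, such as the histone deacetylases, oxidative phosphorylation and BCL2 family genes, had medians below 0, and the falls among fatty acid, hypoxia, lysosome and autophagy genes came to 8, 9, 7 and 5, still fewer than the rises. Against pargyline, leaving out each array gave 2645 to 2833 higher and 2608 to 2775 lower. Against SAHA, the counts were 616 and 614 with the compared groups only, 452 and 499 at an adjusted p under 0.01, and 607 to 926 and 632 to 1069 leaving out each array, the lowest without combination replicate 2. The interaction gave 446 positive and 633 negative terms with array weights, 28 and 64 at an adjusted p under 0.01, and 78 to 236 and 160 to 420 leaving out each array; combination replicates 1, 2 and 3, SAHA replicates 1 and 2, pargyline replicate 3 and DMSO replicates 1 and 2 each moved a count by over 1.5 times. With a replicate block the interaction gave 275 positive and 395 negative terms, and 1169 genes were higher and 1250 lower than with SAHA. Same-numbered combination and DMSO arrays deviated together weakly (r of 0.14, 0.109 and 0.081 across genes), and arrays of unlike number had r of -0.078 to -0.023. Each array thus correlated best with its own number. The labels give no pairing, and whether same-numbered arrays share a batch was not tested. With only the first listed promoter window of each gene, 40.5% of hypoxia and glycolysis genes held the hypoxia element, against 24.8% of all genes by the same choice. The cause of these shifts was not tested. Changes that begin or end at the low level are limited by the array's floor.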
